A study of Mus musculus with 31 samples.

Results

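Exon usage was compared between the cortex of 4 mice heterozygous for the Q175 huntingtin allele (Q175 HET) and that of 5 wild-type (WT) mice, 9 of the 31 mice of the series. The mice were taken by the genotype given in the sample labels, and the WT mice were those whose files list the same splicing events as the Q175 files. Q175 HET mice carry 175 glutamine codons on 1 allele of their own huntingtin gene and 7 on the other, under the gene's own promoter, and WT mice carry 7 on both. Titles call all of these knock-in mice Q150, so the number of glutamines in the genotype field was used. All were untreated, the mice of this set were 18 months old, and 1 hemisphere of each mouse gave the RNA. Litters are not stated, so p-values measure the spread between these mice. The 3 homozygous mice (Q175 HOMO, 175 glutamines on both alleles) were kept in the fit and share the WT mice.

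Huntington's disease is caused by a long CAG repeat in the huntingtin gene, which gives the protein a long stretch of glutamines. When a pre-mRNA is spliced, a cassette exon can be kept or skipped, and the choice is set by proteins bound in and around the exon. In RASL-seq, a pair of probes anneals on either side of a known junction and is ligated and counted. For each event the short junction skips the exon and the long junction keeps it. Exclusion is the percentage of an event's counts that came from the short junction.

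The 9 files held 3351064 to 5256516 counts per mouse over the same 1839 events of 1486 genes, of which 1772 were cassette exons. None of the 16 pairs of mice within a group held copied or near-copied counts (lowest chi-square per degree of freedom 4.91). All 4 HET mice had numbers under 1000, as did WT replicates 6, 7 and 8, whereas WT replicates 9 and 10 and all HOMO mice had higher numbers. Genotype and series of numbers therefore cannot be told apart wherever HOMO mice are set beside HET mice. Of neuronal markers, Map2, Syt1, Camk2b, Celf4 and Grin1 had listed events, and their summed counts ran from 37536 to 45175 per 1000000 counts of a mouse in WT and from 37874 to 43619 in HET mice. The files listed no event of the microglial, oligodendrocyte precursor or striatal markers that were looked up. Every listed junction had at least 4 counts, and whether probes for these markers were made but left unlisted is not known.

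Exclusion of 11 of the 1839 events differed between HET and WT mice (limma on the log2 ratio of short to long counts, Benjamini-Hochberg adjusted p under 0.05), 0.598% of the events tested. It was higher in HET mice for 7 events and lower for 4. Centring each mouse on its median event gave 4 higher of 9, and adding the 5 WT mice of the Q150 set, which were 7 months old, gave 10 higher of 11, so the balance of directions depends on scaling and controls. All 11 were cassette exons, each in a different gene, and 10 are described here. They lie in genes of RNA-binding proteins (Hnrnpdl, Ybx1, Arpp21), in genes of glia and vessels (Mag, Slc4a4, Fn1), and in genes of scaffold, cytoskeleton, ciliary and metabolic proteins (Erbin, Map4, Ahi1, Acss2). At an unadjusted p under 0.05 there were 198 events, 10.8% of those tested. The number past the threshold depended on single mice. It was 33 without Q175 HET replicate 1, 2 without Q175 HET replicate 4, and 6 or 7 with WT replicate 9 or 8 left out.

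**Figure D1:**
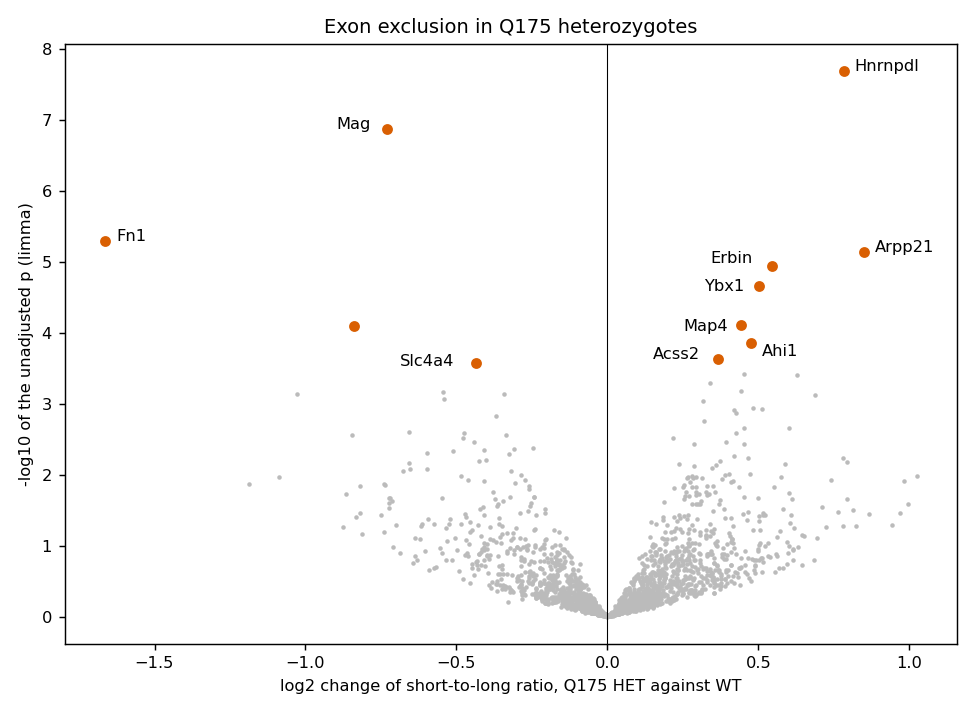
Each point is 1 of the 1839 events, with the log2 fold change in its ratio of short to long counts in Q175 HET against WT mice on the x axis and −log10 of the unadjusted limma p on the y axis. Orange points have an adjusted p under 0.05 and grey points do not. Hnrnpdl (0.78) and Mag (-0.73) have the smallest p-values, and Fn1 (-1.66) has the largest change among the labelled events.

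Exons of 5 of these genes are shown because they carry results below, each on its coding strand from 5′ to 3′ with exon bases in capitals and 10 bases of intron in lower case. For Mag the exon is shown from its first base to its stop codon, since the rest is untranslated, with 10 bases of intron before it.
Hnrnpdl: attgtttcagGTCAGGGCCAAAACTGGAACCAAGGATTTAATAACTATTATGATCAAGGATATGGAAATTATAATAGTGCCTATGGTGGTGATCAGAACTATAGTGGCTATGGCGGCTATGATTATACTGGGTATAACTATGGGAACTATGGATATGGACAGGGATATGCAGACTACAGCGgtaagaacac
Mag: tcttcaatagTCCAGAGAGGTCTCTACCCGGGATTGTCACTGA
Ybx1: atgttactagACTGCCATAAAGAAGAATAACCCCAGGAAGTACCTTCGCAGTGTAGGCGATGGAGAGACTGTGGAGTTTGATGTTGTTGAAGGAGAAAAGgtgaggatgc
Acss2: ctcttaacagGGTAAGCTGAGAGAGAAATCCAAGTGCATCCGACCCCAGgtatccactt
Erbin: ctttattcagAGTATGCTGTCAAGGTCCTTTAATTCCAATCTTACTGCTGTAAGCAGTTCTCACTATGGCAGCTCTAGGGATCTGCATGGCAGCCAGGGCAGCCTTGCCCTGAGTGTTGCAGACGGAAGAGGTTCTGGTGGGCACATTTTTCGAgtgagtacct

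The Hnrnpdl exon, 171 bases at chr5:100036481-100036651 of GRCm38 on the minus strand, is coding in GENCODE M21 and untranslated in some transcripts. Hnrnpdl is a heterogeneous nuclear ribonucleoprotein that binds RNA. WT mice excluded it in 1.47%, 1.56%, 1.75%, 1.38% and 1.22% of counts (replicates 6 to 10). Q175 HET mice excluded it in 2.51%, 2.36%, 2.68% and 2.45% (replicates 1 to 4). All 4 HET mice lay above all 5 WT mice. The log2 ratio rose by 0.78 ± 0.11 (SE, limma adjusted p = 3.8e-05), from 1.48% ± 0.200 (SD, n = 5) to 2.50% ± 0.134 (SD, n = 4). Set against the median event of each mouse, the short junction rose by 1.04 on the log2 scale and the long junction by 0.26. This event passed the threshold in each of the 9 fits that left out a mouse and in all 10 other alternatives. Among those, the fit without a count minimum repeats the main fit, since all events met the minimum. HOMO mice excluded the exon in 4.91%, 5.02% and 4.66%, above all HET mice.

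Ybx1 encodes a cold-shock domain protein that binds RNA and DNA. Its 90-base coding exon lies at chr4:119282781-119282870 on the minus strand. Exclusion was 9.42%, 9.94%, 8.57% and 9.06% in WT replicates 7 to 10 and 10.01% in WT replicate 6. It was 10.8%, 12.8%, 12.8% and 15.1% in HET mice, with no overlap although HET replicate 1 lay close to the highest WT mouse. Its log2 ratio rose by 0.50 ± 0.10 (SE, limma adjusted p = 0.0067). Without HET replicate 4 the limma adjusted p was 0.092, and with the series of mouse numbers as a term it was 0.123. HOMO mice had 20.5%, 17.7% and 16.1%.

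Arpp21 encodes a cAMP-regulated phosphoprotein with RNA-binding domains that is abundant in forebrain neurons. Its 105-base exon lies at chr9:112126435-112126539 on the minus strand and is coding, untranslated or in a noncoding transcript, depending on the transcript. WT mice had 37.4%, 43.5%, 39.0%, 36.7% and 40.0% exclusion. HET mice had 44.7%, 57.1%, 52.6% and 60.9%, so that HET replicate 1 lay just above the highest WT mouse and the others well above it. The event had 266 to 503 counts per mouse, and the widest 95% Wilson half-width was 5.93 points, which covers counting error only, here and below. The log2 ratio rose by 0.85 ± 0.16 (SE, limma adjusted p = 0.0034), with the short junction up by 0.47 and the long junction down at -0.37 relative to the median event. Without HET replicate 4 the limma adjusted p was 0.0664. A second Arpp21 event, a 38-base exon, had a change of 0.26 ± 0.16 (limma adjusted p = 0.60). HOMO mice had 53.1%, 50.9% and 56.0% for the first exon, within the range of the HET mice.

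Mag encodes myelin-associated glycoprotein of oligodendrocytes. Keeping the alternative exon, 45 bases at chr7:30900352-30900396 on the minus strand, gives the short form S-MAG, because the exon holds the stop codon shown above after 30 coding bases, and skipping it gives L-MAG. WT mice skipped it in 29.9%, 27.4%, 27.6%, 27.4% and 26.1% of counts. HET mice skipped it in 22.8%, 19.9%, 17.7% and 15.3%, all below every WT mouse and spread more widely. The log2 ratio fell by 0.73 ± 0.11 (SE, limma adjusted p = 0.000123), from 27.7% ± 1.35 (SD, n = 5) to 18.9% ± 3.21 (SD, n = 4). Relative to the median event the skipping junction changed by -0.68 and the keeping junction by 0.05, with 3328 to 5955 counts per mouse. The call held without each mouse. Against all 10 knock-in WT mice, which mixes ages and file sets, the limma adjusted p was 0.147, and the WT mice of the Q150 set had 21.6% ± 2.34 (SD, n = 5). HOMO mice had 13.5%, 18.2% and 18.8%.

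Slc4a4 encodes the sodium bicarbonate cotransporter NBCe1, found in astrocytes, and skipping of its 97-base exon at chr5:89232764-89232860 on the plus strand gives NBCe1-C, a form with another C-terminus. WT mice skipped the exon in 92.4%, 90.5%, 92.5%, 93.6% and 92.1%. HET mice skipped it in 90.0%, 89.8%, 88.7% and 90.8%. HET replicate 4 lay above WT replicate 7, so the groups overlapped. The log2 ratio fell by 0.44 ± 0.11 (SE, limma adjusted p = 0.0446), and the call was lost in 7 of the 9 fits that left out a mouse, with limma adjusted p from 0.0664 to 0.193. It was kept only without HET replicate 1 or WT replicate 7. HOMO mice had 89.7%, 92.2% and 91.4%, which overlapped with WT (-0.22, limma adjusted p = 0.304).

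Fn1 encodes fibronectin, a matrix protein made in brain mainly around vessels. The event is the 273-base EDB exon at chr1:71613763-71614035 on the minus strand. WT mice skipped it in 49.5%, 35.2%, 41.3%, 30.7% and 19.0%. HET mice skipped it in 12.3%, 20.4%, 17.4% and 8.33%, lower in all but 1 pairing of a HET with a WT mouse, since HET replicate 2 lay above WT replicate 10. The log2 ratio fell by 1.66 ± 0.31 (SE, limma adjusted p = 0.00316). With 106 to 255 counts per mouse and 9 to 57 on the skipping junction, it was the most thinly counted of the 10 events. Exclusion also differed within WT, with a mean of 42.0% in replicates 6 to 8 and 24.9% in replicates 9 and 10. Within the series of numbers under 1000 the change was -2.12 (limma adjusted p = 0.000428). Without HET replicate 4 the limma adjusted p was 0.0582, and against all 10 WT mice 0.722. HOMO mice had 31.5%, 24.8% and 21.4%, with a change of -0.59 (limma adjusted p = 0.346).

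Summed counts of markers of the cell types these genes belong to were lower in HET mice, with overlap between the groups. Summed short and long counts of the oligodendrocyte markers with an event, 3 of 14 looked up (Mag, Mbp, Mobp), were 8835 to 11001 per 1000000 in WT and 7830 to 9079 in HET mice. Those of the astrocyte markers, 2 of 13 (Ndrg2 and Slc4a4 itself), were 14907 to 18518 in WT and 11750 to 15045 in HET mice. Pecam1, 1 of 11 endothelial and mural markers, had 1129 to 1347 in WT and 942 to 1145 in HET mice. Each of these 3 sums had p = 0.0238 in a two-sided exact permutation test, whose smallest possible p is 0.00794, and 0.0317 after Benjamini-Hochberg adjustment over the 4 lists tested. The neuronal sum had p = 0.611 in the same exact test. These tests pooled WT mice of both series of numbers, and the sums were not tested within the lower numbers. WT replicates 9 and 10 had the highest oligodendrocyte sums (11001 and 10958), but not the highest astrocyte or Pecam1 sums. Of the single events of these markers, Slc4a4 was the only one whose total passed the threshold (limma). Fewer cells of a type and less RNA per cell cannot be told apart in bulk tissue, and the part of these differences in the Mag, Slc4a4 and Fn1 results was not tested.

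Erbin (Erbb2ip in the files) encodes a scaffold protein that binds the receptor ERBB2. Its 144-base coding exon at chr13:103830188-103830331 on the minus strand was skipped in 16.6%, 16.2%, 17.6%, 14.5% and 15.8% in WT mice. In HET mice it was skipped in 23.1%, 22.5%, 19.3% and 23.0%, all above every WT mouse. HET mice had a log2 ratio higher by 0.54 ± 0.11 (SE, limma adjusted p = 0.00428). The long junction carried most of it, at -0.41 against 0.14 for the short junction relative to the median event. Without HET replicate 4 the limma adjusted p was 0.0582. HOMO mice had 17.9%, 25.5% and 24.7%.

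Map4 (Mtap4) encodes a microtubule-associated protein. Its 222-base exon at chr9:110064228-110064449 on the plus strand, coding or partly coding, was skipped in 76.2%, 78.5%, 76.0%, 76.9% and 78.4% in WT mice. HET mice had 81.7%, 82.7%, 81.2% and 83.0%, a narrow group above all WT mice. The log2 ratio rose by 0.44 ± 0.10 (SE, limma adjusted p = 0.0183), with the long junction at -0.40 and the short junction at 0.04. The call was lost without WT replicate 6, 8 or 9 or HET replicate 2 or 4, with limma adjusted p from 0.0509 to 0.092. It was also lost with centring (limma adjusted p = 0.0636), the series term (0.0634) and all 10 knock-in WT mice (0.449), and kept with the lower numbers only (0.0137). The younger WT mice of the Q150 set had 81.6% ± 2.20 (SD, n = 5), within the range of the HET mice. HOMO mice had 86.1%, 78.9% and 80.0%.

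Ahi1 encodes a ciliary protein known to bind huntingtin-associated protein 1. The exon, 256 bases at chr10:21070288-21070543 on the plus strand, partly coding and not a multiple of 3, was skipped in 27.2%, 26.0%, 30.5%, 25.9% and 25.8% in WT mice. HET mice had 33.0%, 33.6%, 32.3% and 37.2%, again with no overlap. The log2 ratio rose by 0.48 ± 0.11 (SE, limma adjusted p = 0.0288). The call was lost in 6 of 9 fits that left out a mouse, with limma adjusted p from 0.0509 to 0.189, and was kept without HET replicate 1 or 3 or WT replicate 8. It was also lost with each mouse centred on its median event (limma adjusted p = 0.067), with the series term (0.310), with mice of the lower numbers only (0.376) and against all 10 knock-in WT mice (0.648), where the younger WT mice of the Q150 set had 35.8% ± 4.47 (SD, n = 5), above 3 of the 4 HET mice. The series term and the lower numbers gave the same change (0.42), for this as for the other described events, and differ only in the estimate of error. HOMO mice had 45.8%, 38.2% and 43.6%, above all HET mice.

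Acss2 encodes an enzyme that makes acetyl-CoA from acetate, also for histone acetylation. Its 39-base coding exon at chr2:155551190-155551228 on the plus strand was skipped in 77.5%, 78.3%, 77.8%, 76.6% and 76.3% in WT mice. HET mice had 79.1%, 82.6%, 81.6% and 82.4%, with HET replicate 1 closest to WT. This was a rise of the log2 ratio by 0.37 ± 0.09 (SE, limma adjusted p = 0.0432). The call was lost in 7 of 9 fits that left out a mouse, with limma adjusted p from 0.0592 to 0.244, and was kept without HET replicate 1 or WT replicate 7. It was also lost with centring (limma adjusted p = 0.109), the series term (0.381), the lower numbers only (0.433) and all 10 knock-in WT mice (0.858), where the younger WT mice of the Q150 set had 83.5% ± 1.77 (SD, n = 5), above all 4 HET mice. HOMO mice had 85.2%, 84.9% and 83.2%, above all HET mice.

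**Figure D2:**
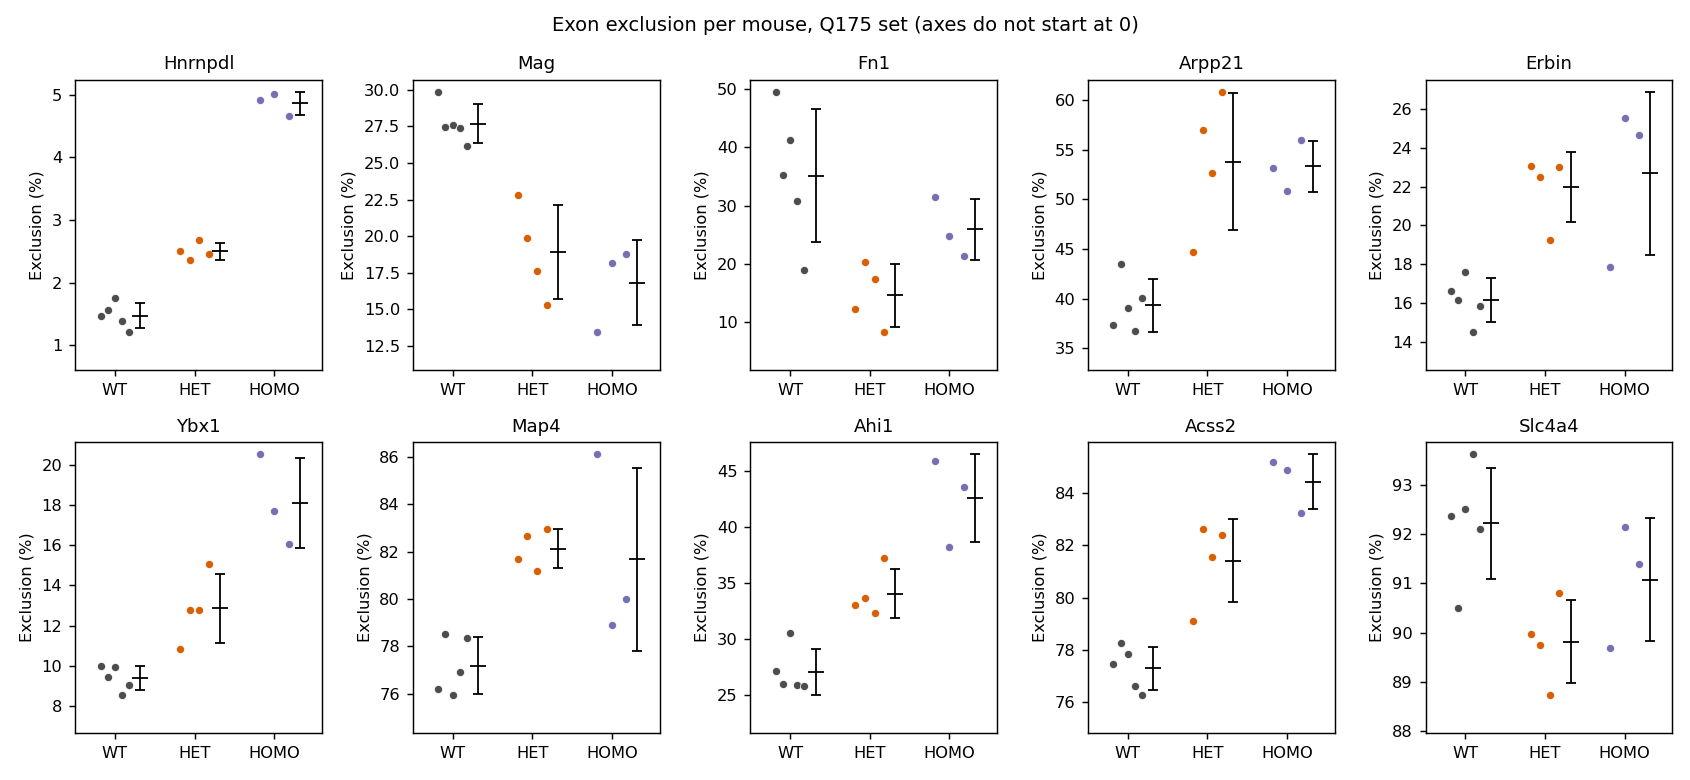
Exclusion in percent (y axis) of the 10 described events in each mouse of the Q175 set, with WT in grey, HET in orange and HOMO in purple, and the mean ± SD in black beside each group. HET mice lie wholly above or below the WT mice in 8 panels and overlap with them for Fn1 and Slc4a4.

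Of the 10 events, 8 had no overlap between HET and WT mice, which 3.48% of all events also showed. With the series of mouse numbers as a term, 4 of the 11 calls were kept, those of Hnrnpdl, Mag, Fn1 and Arpp21. With HET and WT mice of the lower numbers only, 6 were kept, among them Hnrnpdl, Mag, Fn1, Erbin and Map4 but not Arpp21 (limma adjusted p = 0.051). Centring on the median event kept 8 of the 11, and of the described events Map4, Ahi1 and Acss2 lost their call. Against all 10 knock-in WT mice 4 were kept, those of Hnrnpdl, Arpp21, Erbin and Ybx1, and limma without a variance trend called Hnrnpdl alone. The HET mean lay between the WT and HOMO means for 6 events (Hnrnpdl, Mag, Erbin, Ybx1, Ahi1 and Acss2), and 8 of the 10, all but Fn1 and Slc4a4, also passed the threshold in HOMO mice (limma), where 7.07% of all events did. Since both comparisons use the same WT mice, this is no independent reading. All HET mice had lower and all HOMO mice higher mouse numbers, so the order of HET and HOMO means cannot be assigned to genotype.

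The HET mice were not alike. On the log2 ratio, HET replicate 4 was farthest from the WT mean in 6 of the 10 events, and HET replicate 1 was nearest in 4. Median distances in the direction of the change were 0.41 for replicate 1, 0.54 for replicate 2, 0.55 for replicate 3 and 0.72 for replicate 4. Replicate 1 had the lowest total count of the 9 mice, 3351064.

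The next 13 events by p did not pass the threshold (limma adjusted p from 0.0563 to 0.0931), 9 with a higher and 4 with a lower ratio in HET mice. Splicing and RNA genes among them were Dnajc8, a spliceosome-associated chaperone (0.45 ± 0.12, SE), and Snrnp70, the U1 snRNP 70 kDa protein (-0.34 ± 0.09). Snrnp70 exclusion was 45.7%, 49.5%, 51.9%, 48.7% and 51.8% in WT and 45.7%, 42.6%, 45.4% and 40.8% in HET mice. Synaptic genes were Grin1, the obligatory NMDA receptor subunit (0.32 ± 0.09), Nrxn3, a presynaptic adhesion protein (-0.54 ± 0.15), and Sorbs2, a cytoskeletal adaptor (0.48 ± 0.14). For Grin1 the 63-base exon was skipped in 32.5%, 30.5%, 28.3%, 24.9% and 32.4% in WT mice and in 35.5%, 35.0%, 34.8% and 32.3% in HET mice. HET replicate 4 lay just below 2 WT mice, and HOMO mice had 39.7%, 45.3% and 44.1%. Sort1, the sorting receptor sortilin, was skipped in 93.1%, 93.5%, 92.6%, 93.8% and 93.3% in WT and in 94.9%, 95.1%, 94.2% and 94.2% in HET mice, with no overlap (0.34 ± 0.09). The remaining changes were 0.63 for Urgcp, 0.44 for Trp53i11, 0.69 for Fam76b, 0.51 for Iqce, 0.42 for Ubn2, -0.55 for Inf2 and -1.03 for Anxa7, whose short junction had only 7 to 37 counts.

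**Figure D3:**
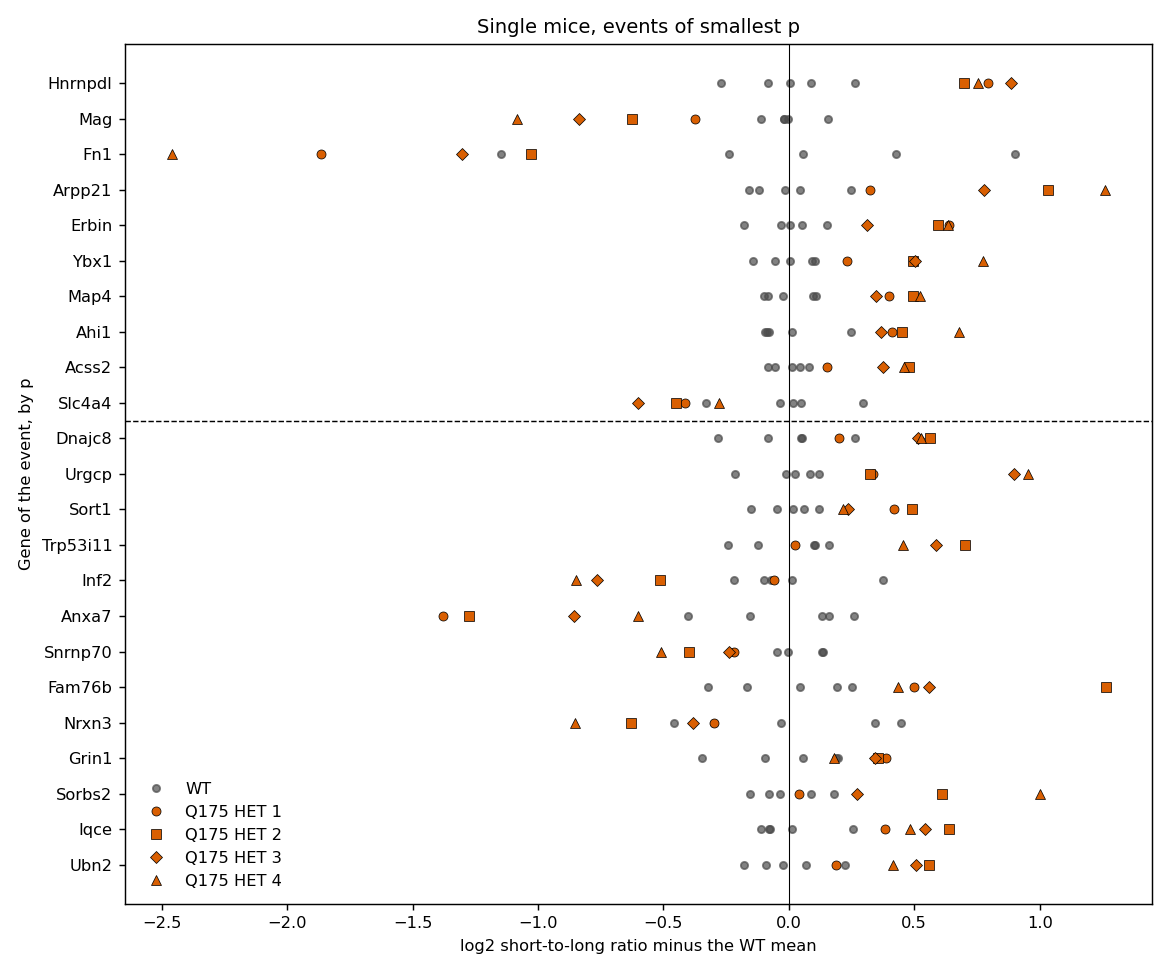
Log2 ratio of short to long counts minus the WT mean (x axis) for the 10 described events above the dashed line and the next 13 below it, ordered by p. Grey circles are WT mice and each HET mouse has its own orange symbol. HET replicate 4 is farthest from WT in 6 of the 10 upper rows.

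Events of genes followed in particular in this study were read as well. The Map7d2 exon, of a microtubule-binding protein, was skipped in 2.14%, 2.34%, 2.13%, 2.21% and 1.84% in WT and in 2.30%, 3.12%, 2.45% and 3.01% in HET mice, which overlapped (0.35 ± 0.14, limma adjusted p = 0.279). The Mlx exon, of a transcription factor of glucose metabolism, had 210 to 334 counts per mouse. It was skipped in 14.3%, 22.6%, 17.8%, 12.6% and 18.3% in WT and in 15.2%, 24.7%, 27.0% and 19.3% in HET mice (0.41 ± 0.22, limma adjusted p = 0.54). The panel had no event of Htt, Tardbp or Mettl3 in this set.

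The described exons were matched to GENCODE M21 by gene and by the distance between the flanking exons. Among 1453 exons matched this way, 65.9% had a length that is a multiple of 3, and 8 of the 10 described exons did. Their median length was 124.5 bases, from 39 to 273, against 90 for all. The letters TGTGTG, the DNA form of the UG repeat known to be bound by TDP-43, were searched on the transcribed strand in the exon and up to 250 intron bases on either side. They stood in 38.2% of all windows and in 6 of the 10 (Hnrnpdl, Mag, Arpp21, Acss2, Map4 and Ahi1). A match is a description of these windows only.

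Gene lists showed few events past the threshold, which 0.598% of all events passed. Of 80 events on the list of splicing factors and other RNA-binding proteins, which holds Hnrnpdl but neither Ybx1 nor Arpp21, 1 had higher and 1 lower exclusion, with a median log2 change of 0.058 against 0.041 for all events. Of 59 postsynaptic events 1 was higher (Arpp21, median 0.056), and of 73 cytoskeletal events 1 was higher (Map4, median -0.023). Of 15 events of huntingtin partners 1 was higher (Ahi1, median 0.023), and the next was Tbp, the TATA-binding protein (0.45 ± 0.14, limma adjusted p = 0.141). Of 10 myelin events 1 was lower (Mag, median 0.16), and of 11 events of striatal genes 1 was higher (Arpp21 again). None passed among 22 ion channel, 10 glutamate and GABA receptor, 37 synaptic vesicle and 38 adhesion events, and their medians were 0.073, 0.012, -0.024 and -0.082. The event of smallest p was in Trpm3, a cation channel, among the channels (0.42 ± 0.12, limma adjusted p = 0.0999), in Cltb, a clathrin light chain, among the vesicle genes (-0.34 ± 0.11, limma adjusted p = 0.149), in Grin1 among the receptors and in Nrxn3 among the adhesion genes. Nrxn2, another neurexin, followed Nrxn3 (-0.27 ± 0.10, limma adjusted p = 0.272).

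Mean exclusion over all events was 44.8%, 44.8%, 45.4%, 44.9% and 44.8% in WT and 44.7%, 45.7%, 45.0% and 45.4% in HET mice. The groups overlapped, with the lowest of the 9 values in HET replicate 1 and the highest in HET replicate 2. The means differed by 0.274 points, and a two-sided exact permutation test of 4 against 5 mice gave p = 0.246, where the smallest possible is 0.00794.

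Short plus long counts were taken as a measure of how much of the probed transcript there is, which assumes that both junctions are counted equally well. Relative to the median event of each mouse they differed for 7 of 1839 events (limma), or 0.381%, with 6 lower in HET mice. The 5 described here were all lower. Inf2, a formin that builds actin filaments, had 519, 469, 482, 569.7 and 572 counts per 1000000 in WT and 429, 349, 403 and 360.4 in HET mice (-0.46 ± 0.08, limma adjusted p = 0.0246). All 4 HET mice lay below all 5 WT mice.

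Itpr1, an intracellular calcium channel, had 705, 664, 683, 735 and 778 counts per 1000000 in WT and 628, 571, 580.1 and 589 in HET mice, without overlap (-0.29 ± 0.06, limma adjusted p = 0.0424). Zmiz1, a transcriptional coregulator, fell by 0.43 ± 0.09, Slc4a4 by 0.31 ± 0.06 and Erbin by 0.30 ± 0.06 (limma adjusted p from 0.0424 to 0.043). Slc4a4 and Erbin are thus the 2 described genes called for exclusion and for totals. Both measures are built from the same short and long counts, so a change in 1 junction can move both. All 7 events had no overlap in counts per 1000000, as did 5.44% of all events. These calls were less stable than those of exclusion. None remained without WT replicate 8, 9 or 10 or HET replicate 2 or 4, 4 were called without HET replicate 3 and 21 without HET replicate 1, and scaling to counts per 1000000 left 2, among them Inf2. With the series of mouse numbers as a term none of the 7 kept its call (limma adjusted p from 0.0863 for Inf2 to 0.152 for Itpr1 among the 5), and with mice of the lower numbers only, 1 did, Zmiz1. Both fits set HET mice against the WT mice of the lower numbers, so they are not separate checks. At an unadjusted p under 0.05 there were 235.

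**Figure D4:**
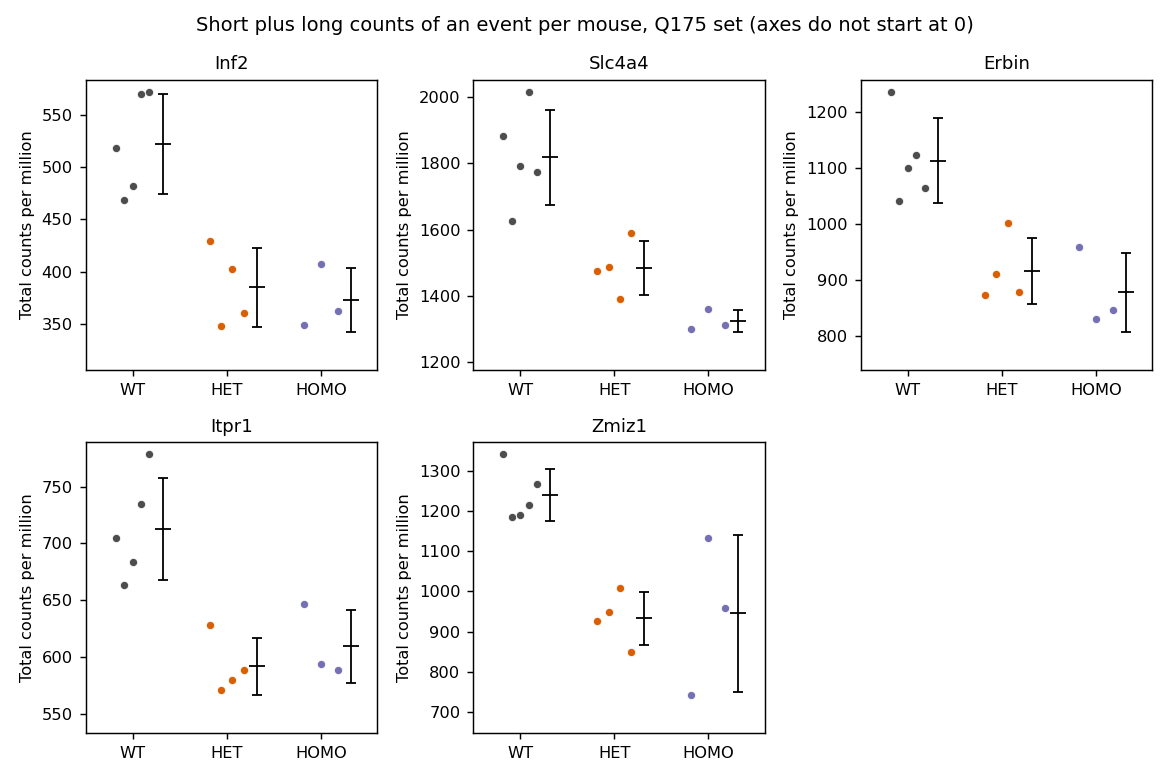
Short plus long counts per 1000000 of all counts (y axis) in each mouse of the Q175 set for the 5 described events whose totals differed between HET and WT mice, with the mean ± SD in black. All 5 are lower in HET mice, with no overlap between WT and HET in any panel.

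The described events were also read in mice whose values did not enter the fit above, each group against WT mice of its own set. These groups differ in age as well as in line, at 7 months for the Q150 set and 3 months for the R6/2 set against 18 months here, so age and line cannot be told apart between sets. In Q150 HET mice (150 glutamines on 1 allele) 7 of the 10 passed the threshold in the same direction (limma), where 3.47% of 1731 shared events passed. In Q150 HOMO mice 8 passed, where 24.2% did, and in R6/2 HD mice, which carry a transgenic fragment of mutant human huntingtin, 6 passed, where 29.2% of 1696 did. Hnrnpdl, Mag, Ybx1, Acss2, Ahi1 and Erbin passed in all 3 groups, Arpp21 in both Q150 groups, and Slc4a4 in Q150 HOMO mice. Fn1 and Map4 passed in none.

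Hnrnpdl exclusion was 3.19% ± 0.334 (SD, n = 4) in Q150 HET mice and 5.75% ± 1.46 (SD, n = 4) in Q150 HOMO mice, against 1.04% ± 0.112 (SD, n = 5) in WT. In R6/2 HD mice it was 21.9% ± 2.31 (SD, n = 3) against 1.06% ± 0.282 (SD, n = 3). The log2 change of 0.78 in Q175 HET mice stood beside 1.64, 2.50 and 4.72 in these groups. Ahi1 exclusion was 48.1% ± 4.47 (SD, n = 4) in Q150 HET mice against 35.8% ± 4.47 (SD, n = 5), and 69.4% ± 0.656 (SD, n = 3) in R6/2 HD against 32.03% ± 3.17 (SD, n = 3). Mag fell in all 3 groups, by 0.87 in Q150 HET, 0.42 in Q150 HOMO and 1.68 in R6/2 HD mice on the log2 scale. Arpp21 rose by 0.83 ± 0.19 (SE) in Q150 HET mice. In R6/2 mice its exclusion was 61.6% ± 28.2 (SD, n = 3) in WT, too scattered to compare.

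Fn1 exclusion was 10.8% ± 10.1 (SD, n = 4) in Q150 HET against 11.8% ± 9.19 (SD, n = 5) in WT mice, well under the 35.1% ± 11.5 (SD, n = 5) of the WT mice of the Q175 set. Its log2 change was 1.07 ± 0.63 (SE, limma adjusted p = 0.231) in Q150 HOMO mice and 0.69 ± 0.49 (limma adjusted p = 0.336) in R6/2 HD mice, opposite in sign to that of Q175 HET mice. Map4 changes were 0.09 in Q150 HET, -0.024 in Q150 HOMO and -0.12 in R6/2 HD mice, each within 1 SE of 0 (0.16, 0.16 and 0.15).

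**Figure D5:**
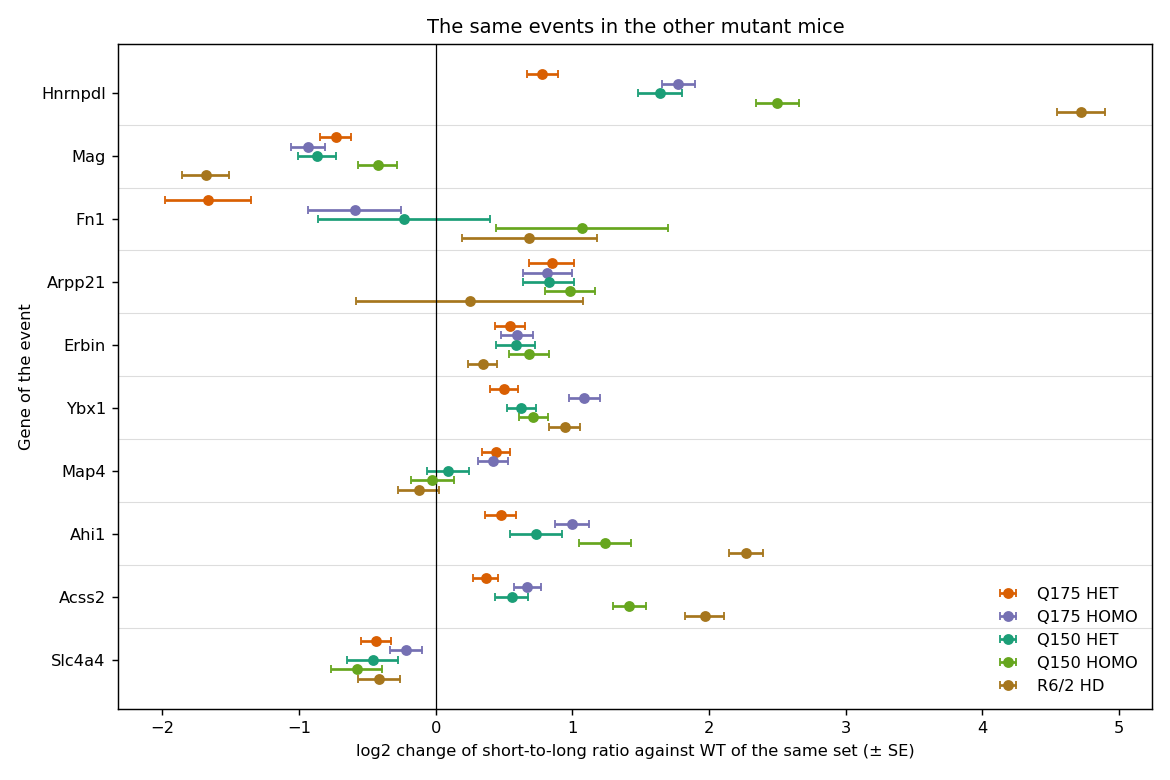
Change in log2 ratio of short to long counts ± SE against WT mice of the same set (x axis) for the 10 described events in 5 mutant groups. Q175 HET and Q175 HOMO share WT mice, and Q150 HET and Q150 HOMO share theirs. Hnrnpdl is the event whose change differs most between groups, from 0.78 in Q175 HET to 4.72 in R6/2 HD.

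Whether Q175 HET and Q150 HET mice differed in their change was tested directly as an interaction, between mice of 18 and of 7 months. None of 1731 events passed (limma), or 0.0%, with 141 at an unadjusted p under 0.05, and the median difference was -0.083. The smallest p belonged to Hnrnpdl, whose change was smaller in Q175 HET by 0.86 ± 0.19 on the log2 scale (0.78 against 1.64, limma adjusted p = 0.116). For the other described events the difference ran from -1.43 ± 0.77 (SE) for Fn1 and -0.26 ± 0.23 for Ahi1 to 0.35 ± 0.20 for Map4, and 9 of the 10 lay within 2 SE of 0, which does not show that the changes were alike. The number that passed was 3 without WT replicate 2 of the Q150 set.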

How the data were processed

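RASL-seq junction counts were deposited by the authors as whole numbers of short and long reads per event and mouse, a unit recorded as other because commas separate digits, and were not normalized. Every listed junction had at least 4 counts. The aligner is not given in the sources used here. The submitters' processing notes name mm10, but 1544 event positions lay outside their gene in GRCm38 and 248 inside, so file positions were not used and exons were matched by gene and span to GENCODE M21 (1453 unique of 1772 cassettes). Sequences are from RefSeq GRCm38.p6.

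For each event, log2((short + 0.5)/(long + 0.5)) was fitted with limma 3.58.1 (R 4.3.3) over the 12 mice of the Q175 set, with a mean per group and a variance trend on counts. A mean of at least 10 counts was required, which all events had. Totals were log2(short + long + 0.5) minus the median of the mouse. p-values were adjusted by Benjamini-Hochberg over all events. Named events were all past the threshold, the next by p up to 24, all of Map7d2, Mag, Mlx, Htt, Tardbp and Mettl3, up to 3 per gene list, and totals past the threshold. Events and lists were chosen with earlier results of these data known. Of the events past a threshold, 3 are not reported here. No molecular identifiers are stated. Alternatives are given in the closing section. Figures were drawn with matplotlib 3.10.9.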

Additional observations from a re-analysis of the deposited data

Results flagged for a closer look

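Single mice stood apart from the rest of their group (Dixon's test, 95% level) in 6 of 88 groups of values, where chance gives about 1 in 20. Among HET mice, replicate 3 had 19.3% exclusion for Erbin against 22.5% to 23.1% in the others, and 5.08% for Tjap1 against 6.31% to 6.56%. Replicate 1 had 3.96% for Dnajc8 against 4.88% to 5.04%, 63.1% for Ncor1 against 69.0% to 69.8%, and 67.8% for the 38-base Arpp21 exon against 58.3% to 59.7%. Among WT mice, replicate 8 had a mean exclusion over all events of 45.4% against 44.8% to 44.9%.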

How the results depend on the processing

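The count of 11 events with changed exclusion was 1 without a variance trend, 4 with the series of mouse numbers as a term, 6 with only mice of the lower numbers, 7 with a minimum log2 change of 0.5 and 22 with a quasi-binomial model, and ran from 2 to 33 when a mouse was left out. It stayed within 1.5 times of 11 under 6 other settings. These include the fit without a count minimum, which repeats the main fit because all events met the minimum. Against all 10 knock-in WT mice only 4 of the 11 events were the same, and centring on the median event gave 9 with 4 higher. The count of 7 changed totals was 2 on counts per 1000000, 14 with only HET and WT mice, 3 with the series term (0 of the 7 among them), 3 with the lower numbers only (1 of the 7), 13 at a mean of at least 50 counts and 0 without a trend, and ran from 0 to 21 when a mouse was left out. The interaction count was 2 with the series term and ran from 0 to 3 when a mouse was left out. The difference in mean exclusion, 0.274 points, was 0.430 (exact permutation p = 0.0873) as a share of summed counts, 0.775 (p = 0.429, exact) as a median over events and 0.439 (exact permutation p = 0.033) against all 10 WT mice, a setting that mixes mice of 18 and 7 months and 2 file sets, and ran from 0.111 to 0.440 when a mouse was left out. Over 190 values of the described events under alternatives, the repeat of the main fit among them, 132 kept the call, 58 lost it with the same sign and 0 reversed. The Zmiz1 ratio, not called (-0.03), was 0.10 with all 10 WT mice and ran from -0.069 to 0.025 when a mouse was left out, turning positive without WT replicate 7 or HET replicate 1 (0.017). The causes were not tested. No paired analysis was possible because litters or other pairings of HET with WT mice are not stated. Precision is limited by 9 mice and by thinly counted events such as Fn1.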
